A study of Mus musculus with 8 samples.

Results

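Isg15, Uba7, Ube2l6, Herc6 and Usp18 are mouse genes of the ISG15 conjugation system, and Ubd encodes the modifier of the FAT10 system. These 6 genes were taken by name from 20408 genes with a row in any of 8 single-cell RNA-sequencing (scRNA-seq) libraries of sorted tumour endothelial cells (ECs), and were read in 7159 cells with at least 1 Pecam1 UMI out of 8204 deposited cells. A UMI is a counted mRNA molecule. All 6 genes passed the filter on low values, which asked for at least 5 CPM in at least 2 libraries and left 10424 genes. CPM are the UMIs of a gene after every cell is scaled to the same total, and a level, unless said otherwise, is the mean CPM over the ECs of 1 library. The kit reads the 3′ ends of mRNAs, so levels are compared within a gene and not between genes.

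ISG15 and FAT10 (the product of Ubd) are small proteins that, like ubiquitin, are attached to other proteins, and each is built of a pair of ubiquitin-like domains. ISG15 is activated by the E1 enzyme UBA7, passed to the E2 enzyme UBE2L6 and, in the mouse, joined to its targets by the E3 ligase HERC6, while the protease USP18 takes ISG15 off again and also binds the type I interferon receptor, where it dampens signalling. Type I interferon induces the genes of this ISG15 system. FAT10 has its own route through the E1 enzyme UBA6 and the E2 enzyme UBE2Z, sends its targets to the proteasome, and is best known as a gene induced by TNF and interferon gamma together.

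The ECs came from 2 tumour models in adult female mice, each sampled 3 h after the tumour was injected with either PBS or the STING agonist cGAMP, a cyclic dinucleotide. Spontaneous tumours arose in mice in which the MMTV promoter drives the polyoma middle T antigen (PyMT) in mammary epithelium, and implanted tumours grew in the mammary fat pad of mice without the transgene, from PyMT tumour cells that had been cultured and were injected in Matrigel. Model and injection gave 4 groups with 2 libraries each, and a group is called by both, as in implanted PBS. The methods give 2 mice per group, but the labels do not tie a library to a mouse, so the p-values measure the spread between libraries. The strain is C57BL/6 in the labels but FVB in the methods, and this conflict is not settled. Cells had been sorted as CD31+ and CD45-, with dead cells left out.

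The libraries held 601 to 1529 ECs with 7451522 to 16338968 UMIs. The median was 9523 to 14707.5 UMIs per EC in 7 libraries and 3049 in replicate 1 of implanted cGAMP, where 37.9% of ECs had fewer than 2000 UMIs against 3.28% to 10.6% elsewhere. All 8 pan-endothelial markers were found in every library, at 5535 to 6660 CPM in sum. All 6 immune, 6 mural and 6 epithelial markers were found in every library too. The summed level of the immune markers was 12.0 to 17.0 CPM in the PBS libraries, 27.0 and 39.4 CPM in spontaneous cGAMP and 58.4 and 200 CPM in implanted cGAMP, and that of the mural markers was 570 and 715 CPM in spontaneous cGAMP against 75.3 to 426 CPM in the other groups. Epithelial markers summed to 568 to 699 CPM in the spontaneous libraries, 271 and 370 CPM in implanted PBS, and 1075 and 156 CPM in replicates 1 and 2 of implanted cGAMP. Only 7 cell barcodes were shared between libraries. The comparisons of groups over all ECs were repeated in 5133 ECs that carried Cdh5 and no UMI of Ptprc, Epcam or Pdgfrb. Their calls for the 6 genes were kept, and Isg15 was also called between the models after cGAMP. The results by vessel class and in single cells were not repeated in these ECs. The part of other cells in the results was not tested beyond this.

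In the GRCm38 assembly (GENCODE vM21), Isg15 lies on the reverse strand of chromosome 4 from 156199424 to 156200818. The other genes lie on forward strands: Uba7 on chromosome 9 from 107975505 to 107984060, Ube2l6 on chromosome 2 from 84798828 to 84810335, Herc6 on chromosome 6 from 57581000 to 57664632, Usp18 on chromosome 6 from 121245906 to 121270917, and Ubd on chromosome 17 from 37193892 to 37196095. Annotated genes on the same strand overlap Herc6 (Gm45193) and Uba7 (Gm20661, over 1003 bases), so reads in those stretches could be split or dropped by the counting. Genes on the opposite strand overlap Herc6 (Gm19244) and Usp18 (Gm44148). Isg15, Ube2l6 and Ubd share no bases with another annotated gene.

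The 250 bases before the RefSeq starts of Isg15 and Ubd (GRCm38.p6) are shown because these 2 modifiers behaved differently in the data. Capitals mark matches to the interferon-stimulated response element (ISRE), searched as GAAA, any 2 bases, GAAA, in Isg15, and to the NF-kB consensus in Ubd. Each sequence runs in the direction of its gene.
Isg15, chr4:156200819-156201068, reverse strand: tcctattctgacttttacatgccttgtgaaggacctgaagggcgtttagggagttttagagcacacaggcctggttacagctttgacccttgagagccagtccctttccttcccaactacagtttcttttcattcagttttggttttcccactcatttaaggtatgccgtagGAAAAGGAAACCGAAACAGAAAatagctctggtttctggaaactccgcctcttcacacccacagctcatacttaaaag
Ubd, chr17:37193642-37193891, forward strand: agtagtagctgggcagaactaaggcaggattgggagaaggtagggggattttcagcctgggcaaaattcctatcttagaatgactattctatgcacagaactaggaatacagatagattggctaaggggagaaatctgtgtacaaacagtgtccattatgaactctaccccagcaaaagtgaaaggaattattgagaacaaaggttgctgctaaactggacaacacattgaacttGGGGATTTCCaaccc

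Isg15 held 3 overlapping ISRE matches 78 to 57 bases before its start and no NF-kB match. Ubd held 1 NF-kB match 15 to 6 bases before its start and no ISRE match. Over 32841 RefSeq promoters of the same length and both strands, 2.98% held the ISRE and 3.9% the NF-kB consensus. A shorter interferon regulatory factor core (AA, any 2 bases, GAAA), which each ISRE match also contains, was in 21.3% of promoters, among them Isg15, Uba7 and Ubd. Ube2l6 and Herc6 held none of these motifs in this window. Promoters were matched for 5 of the 6 genes, all but Usp18. The matches are letters in a window and do not show binding.

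The response to cGAMP was measured first in spontaneous tumour ECs. All 6 genes rose 3 h after the injection, in a comparison in which 12.7% of the 10424 genes were called and 5.09% were called higher (limma, Benjamini-Hochberg adjusted p below 0.05). In implanted tumour ECs the 5 genes of the ISG15 system rose and Ubd was not called, where 25% of genes were called and 8.6% were called higher. The median log2 fold change over the 6 genes was 2.82 in spontaneous and 2.08 in implanted tumours, against -0.10 over all genes in both. Median-of-ratios scaling moved the all-gene median to -0.0038 and -0.0072, and left the calls and directions of the 6 genes in these 2 comparisons as they were. It turned the split of calls over all genes, from 40.2% to 66.4% higher in spontaneous and from 34.3% to 51.5% higher in implanted tumours.

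**Figure D1:**
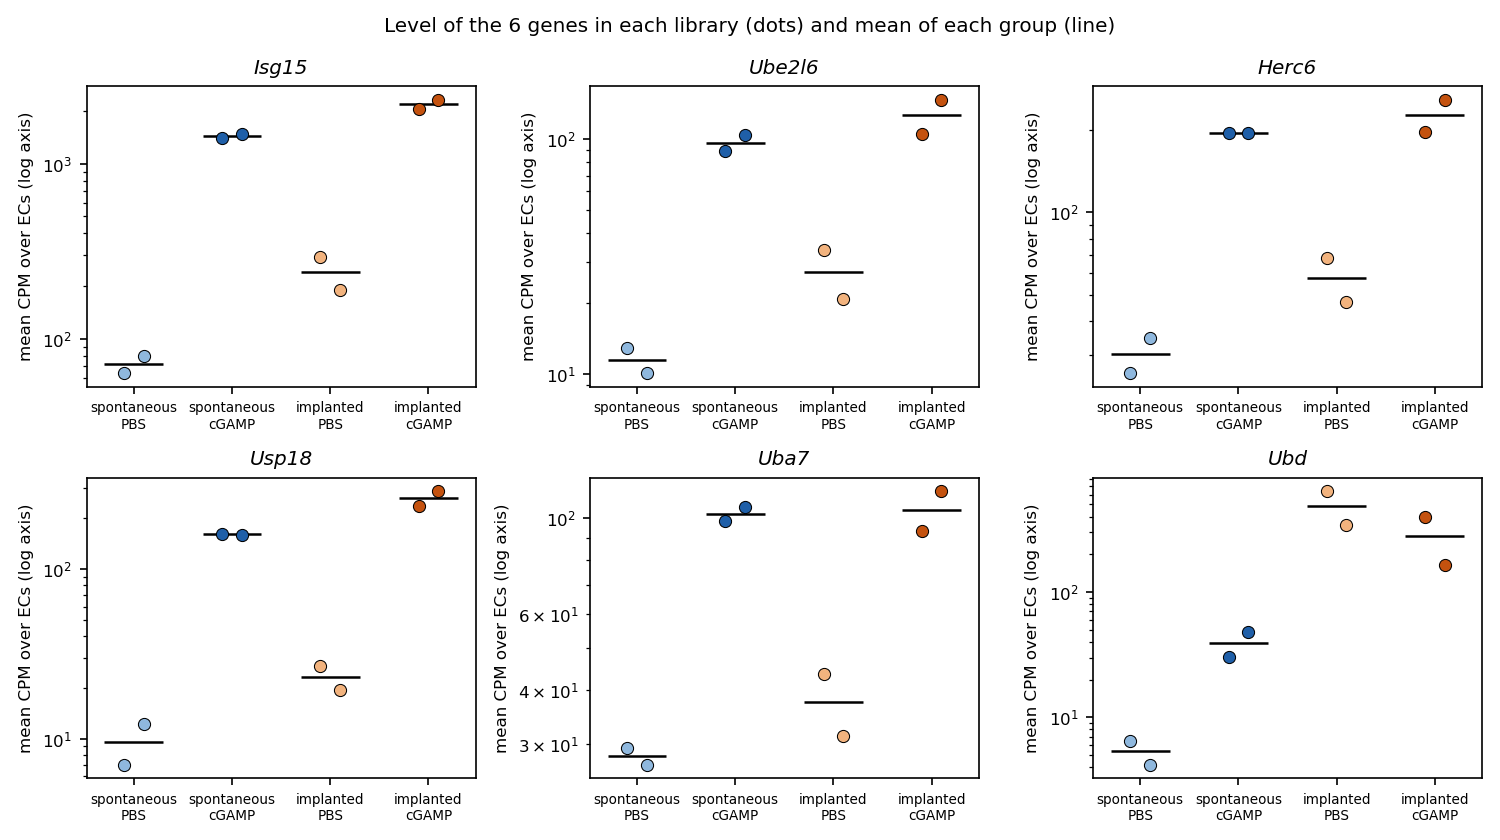
Mean CPM over ECs (log axis) of each gene in the 8 libraries, as dots, with the mean of the 2 libraries of each group as a line. In the 5 genes of the ISG15 system both cGAMP libraries lie above both PBS libraries of the same model, while Ubd lies between 341 and 638 CPM in implanted PBS and between 165 and 399 CPM in implanted cGAMP.

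Isg15, the modifier itself, averaged 63.7 and 80.1 CPM in the spontaneous PBS libraries, 1410 and 1478 CPM in spontaneous cGAMP, 293 and 191 CPM in implanted PBS and 2062 and 2324 CPM in implanted cGAMP. The 4 groups did not overlap in this gene, and implanted cGAMP was highest. Isg15 rose 20.1-fold in spontaneous tumours, a log2 fold change of 4.32 ± 0.18 (SE, n = 2 against 2, limma adjusted p = 5.8e-07). In implanted tumours it rose 9.06-fold, by 3.20 ± 0.18 on the log2 scale (adjusted p = 7.1e-06). It started from a level 3.37 times higher in implanted PBS, a log2 difference of 1.72 ± 0.18 (adjusted p = 0.00068).

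Uba7, the E1 enzyme that activates ISG15, had the smallest response of the 5 ISG15-system genes in spontaneous tumours. It averaged 29.4 and 26.9 CPM in spontaneous PBS, 98.1 and 106 CPM in spontaneous cGAMP, 43.5 and 31.3 CPM in implanted PBS and 93.0 and 115 CPM in implanted cGAMP. It rose by 1.82 ± 0.16 on the log2 scale in spontaneous (adjusted p = 5.7e-05) and by 1.46 ± 0.16 in implanted tumours (adjusted p = 0.00023). The 2 cGAMP groups overlapped, and the 2 PBS groups were adjacent without overlap.

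Ube2l6, the E2 enzyme, averaged 12.9 and 10.1 CPM in spontaneous PBS, 88.7 and 104 CPM in spontaneous cGAMP, 33.6 and 20.9 CPM in implanted PBS and 105 and 147 CPM in implanted cGAMP. It rose 8.39-fold in spontaneous tumours (log2 2.97 ± 0.23, adjusted p = 2.6e-05) and 4.62-fold in implanted tumours (log2 2.19 ± 0.23, adjusted p = 0.00019). The 4 groups stood in the same order as for Isg15, with the 2 cGAMP groups nearly touching.

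Herc6, the E3 ligase, averaged 25.8 and 34.7 CPM in spontaneous PBS, 196 and 196 CPM in spontaneous cGAMP, 68.2 and 46.8 CPM in implanted PBS and 197 and 259 CPM in implanted cGAMP. It rose 6.47-fold in spontaneous tumours (log2 2.67 ± 0.19, adjusted p = 1.8e-05) and 3.96-fold in implanted tumours (log2 1.98 ± 0.19, adjusted p = 0.00014). After cGAMP the lower implanted library was level with both spontaneous libraries.

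Usp18, the protease that removes ISG15, averaged 7.04 and 12.2 CPM in spontaneous PBS, 161 and 159 CPM in spontaneous cGAMP, 26.8 and 19.5 CPM in implanted PBS and 234 and 287 CPM in implanted cGAMP. It rose 16.6-fold in spontaneous tumours (log2 3.96 ± 0.22, adjusted p = 2.7e-06) and 11.3-fold in implanted tumours (log2 3.45 ± 0.22, adjusted p = 1.4e-05). Thus the modifier and its protease rose most among the 5 genes of the system in both models, and Uba7 rose least.

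Ubd, the gene of the other modifier, went a different way. It averaged 6.48 and 4.19 CPM in spontaneous PBS, 30.5 and 47.8 CPM in spontaneous cGAMP, 638 and 341 CPM in implanted PBS and 399 and 165 CPM in implanted cGAMP. In spontaneous tumours it rose 7.34-fold (log2 2.65 ± 0.41, adjusted p = 0.0033). In implanted tumours the libraries of the 2 treatments overlapped, and the log2 difference was -0.86 ± 0.41 (adjusted p = 0.16). Without replicate 1 of implanted cGAMP, the shallow library, this difference was -1.49 and was called (adjusted p = 0.016). It was also called when cells were thinned to 2000 UMIs (-0.94, adjusted p = 0.033). With equal weight to each vessel class, a setting added once the values were known, the response in spontaneous tumours was 1.01 and was not called (adjusted p = 0.23).

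**Figure D2:**
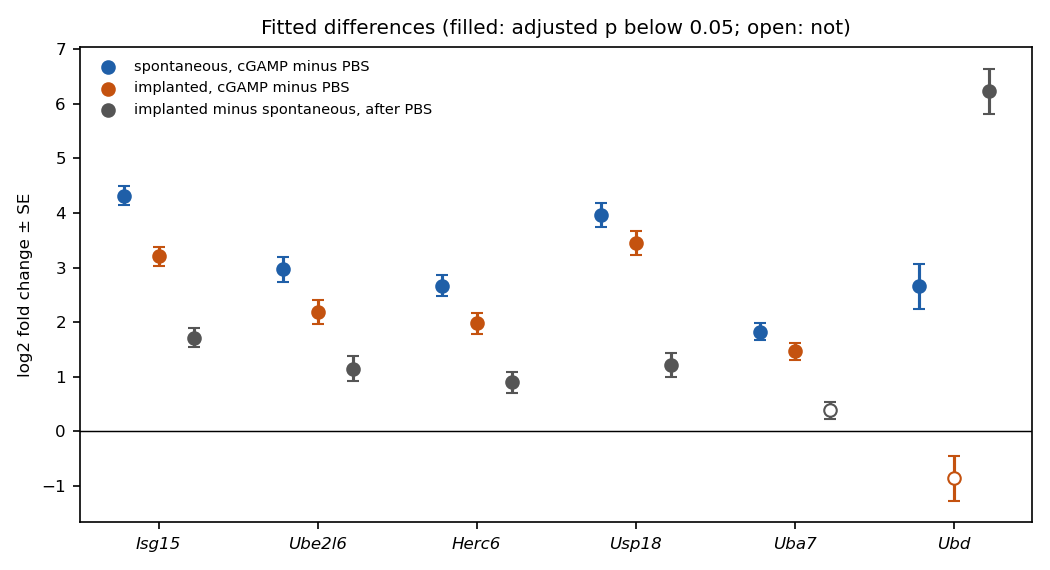
Log2 fold change (vertical axis, bars are the SE of the fit) of each gene for cGAMP against PBS in spontaneous and in implanted tumours and for implanted against spontaneous tumours after PBS. The 5 genes of the ISG15 system lie between 1.46 and 4.32 for cGAMP in both models, and Ubd stands at 2.65 in spontaneous and -0.86 in implanted tumours.

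Whether the models answered cGAMP to a different extent was tested as the difference of the 2 responses, which shares all 8 libraries with the comparisons above. Ubd was the only 1 of the 6 genes called, at -3.51 ± 0.58 on the log2 scale (adjusted p = 0.040), where 0.662% of genes were called. The call was lost when any of 5 libraries was left out, namely both spontaneous PBS, both spontaneous cGAMP and replicate 1 of implanted PBS, with differences of -3.83 to -3.06 and adjusted p of 0.093 to 0.25. It was also lost with a pseudocount of 10 CPM, without the filter on low values and with summed UMIs, and equal weight to each vessel class gave -1.75 (adjusted p = 0.36). For the ISG15 system the differences were -1.11 ± 0.25 for Isg15 (adjusted p = 0.092), -0.78 ± 0.32 for Ube2l6 (adjusted p = 0.34), -0.69 ± 0.27 for Herc6 (adjusted p = 0.33), -0.52 ± 0.31 for Usp18 (adjusted p = 0.51) and -0.36 ± 0.22 for Uba7 (adjusted p = 0.52). All 5 values were below 0 and none was called. Isg15 was called with thinned cells (-1.19, adjusted p = 0.0056), with summed UMIs, with equal class weight and without replicate 2 of implanted PBS.

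The models were then compared within each treatment. After PBS, 5 of the 6 genes were higher in implanted than in spontaneous tumour ECs, where 7.83% of genes were called and 3.39% were called higher. Besides Isg15 (3.37-fold), these were Ubd (91.8-fold, log2 6.23 ± 0.41, adjusted p = 0.00014, and 4.52 with equal weight to each vessel class and 4.96 with a pseudocount of 10 CPM), Usp18 (2.41-fold, log2 1.21, adjusted p = 0.013), Ube2l6 (2.37-fold, log2 1.15, adjusted p = 0.017) and Herc6 (1.90-fold, log2 0.90, adjusted p = 0.024). Uba7 was not called (log2 0.38 ± 0.16, adjusted p = 0.17). Without replicate 1 of implanted PBS, the higher library in all 6 genes, only Isg15 and Ubd kept the call. The same 3 calls were lost without the filter on low values, with adjusted p of 0.068 for Usp18, 0.083 for Ube2l6 and 0.10 for Herc6.

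After cGAMP, Ubd was the only gene of the 6 called between the models, at 7.21-fold higher in implanted tumours (log2 2.72 ± 0.41, adjusted p = 0.0048), where 13.8% of genes were called and 5.23% were called higher. The log2 difference was 2.08 without the shallow replicate 1 of implanted cGAMP and 3.35 without replicate 2, and was called in both. The differences were 0.60 ± 0.18 for Isg15 (adjusted p = 0.052), 0.69 ± 0.22 for Usp18 (adjusted p = 0.068), 0.37 ± 0.23 for Ube2l6 (adjusted p = 0.31), 0.21 ± 0.19 for Herc6 (adjusted p = 0.52) and 0.02 ± 0.16 for Uba7 (adjusted p = 0.94). Isg15 and Usp18 therefore sat close to the threshold. Isg15 passed it under 6 other settings, among them thinned cells (0.67, adjusted p = 0.0087), and without either implanted PBS library (adjusted p = 0.014 and 0.015). Usp18 passed it with the larger pseudocount, with summed UMIs and without either spontaneous PBS library (adjusted p = 0.028 in both).

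Shares of cells with a UMI were read next. With every cell thinned to 2000 UMIs, which left 6158 ECs and dropped 1001, cells with no UMI of any of the 5 genes made up 80.5% and 78.9% of spontaneous PBS libraries and 55.4% and 63.1% of implanted PBS libraries. After cGAMP they made up 10.2% and 5.93% of spontaneous and 3.48% and 2.83% of implanted libraries. The widest 95% confidence interval of these shares (Wilson) ran from 75.3% to 82.1%, and intervals cover counting error only. Isg15 alone was found in 8.46% and 9.21% of thinned spontaneous PBS cells, 29.6% and 23.3% of implanted PBS cells, 81.8% and 86.3% of spontaneous cGAMP cells and 93.2% and 92.4% of implanted cGAMP cells. The other genes were each found in fewer thinned cGAMP cells, Usp18 in 24.5% to 34.9%, Herc6 in 26.8% to 34.5%, Uba7 in 17.2% to 22.3% and Ube2l6 in 15.9% to 22.7%, and 3 or more of the 5 genes in 19.2% to 31.0%, against 0.232% to 2.42% after PBS. Without thinning the Isg15 shares were 27.9% and 31.1%, 66.6% and 58.4%, 96.7% and 94.7%, and 91.9% and 98.5%, in that order. RNA from other cells in a droplet can give such UMIs, and no cell type that lacks Isg15 was at hand to set its share, so the shares are not counts of responding cells.

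The 6 genes were also compared between kinds of vessel. ECs were scored on fixed markers of 6 classes, and a cell joined its best class when that score was at least 1 SD above the mean of all ECs and 2 markers were found. There were 1009 arterial, 1086 postcapillary venous, 793 tip, 898 AQP7+ capillary, 304 proliferative and 408 lymphatic cells, and 2661 stayed unclassed. These classes are ranges of a score, and 1228 cells lay within 0.25 of a boundary. The median summed level of the arterial markers was 5958 CPM in the arterial class and 206 to 562 CPM in the others, and that of the venous markers was 3280 CPM in the venous class and 91.5 to 512 CPM in the others. AQP7+ markers were more widely shared, at 14700 CPM in their own class and 2918 to 3477 CPM in arterial, venous, tip, proliferative and unclassed cells. Proliferative cells reached 20 cells in 3 libraries only and were not tested. None of the 6 genes is a marker of a class.

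Each class was compared with the unclassed cells, averaging the models (limma with library as a block, 48 sets of cells). After PBS, 4 of 30 combinations of class and gene were called. In arterial cells these were Isg15 (higher by 0.56 ± 0.20 on the log2 scale, adjusted p = 0.040) and Ubd (-4.70 ± 0.73, adjusted p = 5.7e-06), where 19.2% of genes were called. In venous cells they were Isg15 (-1.38 ± 0.20, adjusted p = 3.0e-06) and Usp18 (-1.27 ± 0.28, adjusted p = 0.0012), where 13.3% of genes were called. No gene of the 6 was called in tip (4.15% of genes called), AQP7+ (4.72%) or lymphatic cells (28.9%), and 10 of the 30 had an unadjusted p below 0.05. The arterial call of Isg15 was lost with a stricter score, with thinned cells and without any of 5 libraries, namely both spontaneous PBS, both implanted cGAMP and replicate 2 of implanted PBS, with adjusted p of 0.058 to 0.17.

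After cGAMP, 4 of 30 combinations were called. They were Ubd in arterial cells (-2.49 ± 0.73, adjusted p = 0.013, 16.6% of genes called), Isg15 (-0.63 ± 0.20, adjusted p = 0.036) and Herc6 (-0.62 ± 0.19, adjusted p = 0.033) in venous cells (8.6% of genes called), and Ubd in lymphatic cells (-2.58 ± 0.73, adjusted p = 0.0071, 24.5% of genes called). None was called in tip (4.74%) or AQP7+ cells (3%). With thinned cells only the arterial one was kept, and adjusted p was 0.12 for Isg15, 0.31 for Herc6 and 0.064 for Ubd in lymphatic cells. Both venous calls were lost when Selp and Ackr1 were left out of the venous markers (0.089 and 0.087), and the lymphatic one at a score threshold of 1.5 (0.12). All 4 were lost without replicate 1 of implanted cGAMP (adjusted p of 0.078 to 0.15) and without replicate 2 of spontaneous cGAMP (0.11 to 0.32). Both venous calls were also lost without replicate 1 of spontaneous cGAMP (0.20 and 0.23), and all but the lymphatic one without replicate 2 of implanted cGAMP (0.075 to 0.38).

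Whether the response to cGAMP itself differed between a class and the unclassed cells was tested in the same fit, and 0 of 30 combinations were called by limma, while 6 had an unadjusted p below 0.05. The share of all genes called was 0.0276% in arterial, 0.0829% in venous, 0.0644% in tip, 0.00921% in AQP7+ and 1.42% in lymphatic cells. The 6 were Isg15, Herc6 and Ubd in arterial, Isg15 and Uba7 in venous and Herc6 in AQP7+ cells. The absence of calls does not show equal responses. On simulated data the tip response found 26 of 95 genes changed by 1 on the log2 scale and 71 of 96 changed by 2. The simulated noise was independent between sets of cells, without a shared library effect, and only tip cells were changed. These figures therefore do not give the power of the test on the real data. The test also averaged the models. Over all ECs Ubd rose by 2.65 on the log2 scale in spontaneous tumours, while its change of -0.86 in implanted tumours was not called. In unclassed cells mean Ubd went from 4.23 to 54.9 CPM in spontaneous and from 831 to 393 CPM in implanted tumours. Group means in venous, tip and AQP7+ cells also rose in spontaneous and fell in implanted tumours. Arterial means rose in both, from 0 to 28.95 CPM and from 4.951 to 24.1 CPM. Lymphatic means fell in spontaneous tumours (111.5 to 12.69 CPM) and rose in implanted tumours (28.99 to 96.73 CPM).

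**Figure D3:**
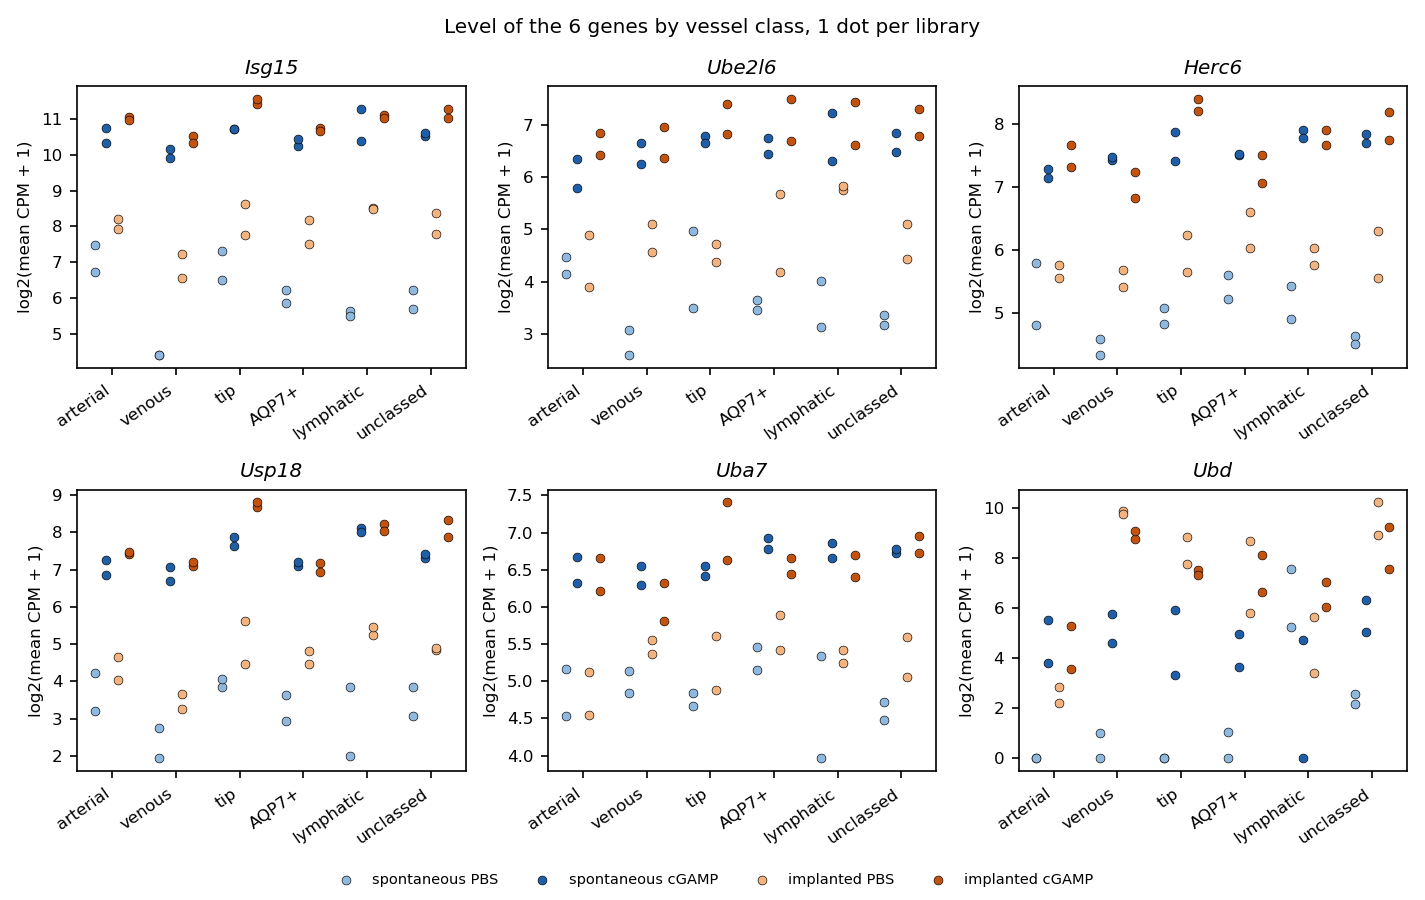
Level of each gene, as log2 of mean CPM plus 1, in the arterial, postcapillary venous, tip, AQP7+ capillary, lymphatic and unclassed cells of each library, 1 dot per library, coloured by group. Isg15 is lowest in venous cells in each of the 4 groups, and Ubd in implanted PBS runs from under 3 in arterial cells to over 9 in venous cells.

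Isg15 in venous cells averaged 20.3 and 20.2 CPM in spontaneous PBS, against 51.0 and 73.1 CPM in the unclassed cells of those libraries. In implanted PBS it averaged 148 and 92.5 CPM in venous and 332 and 221 CPM in unclassed cells. In spontaneous cGAMP it reached 961 and 1143 CPM in venous cells against 1480 to 1553 CPM in unclassed cells, and in implanted cGAMP 1463 and 1288 CPM against 2092 to 2502 CPM. So venous cells had less Isg15 than unclassed cells in each of the 4 groups, with no overlap. The median depth of venous cells was higher than that of unclassed cells in the PBS libraries, at 11274 to 14976.5 against 7683.5 to 12006 UMIs. The gap was wider in implanted cGAMP, at 7454 against 1802 UMIs in replicate 1 and 23155 against 11635.5 UMIs in replicate 2, and was 14147 against 12569.5 and 16741 against 13605 UMIs in spontaneous cGAMP.

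Tip cells, the leading cells of sprouts, had among the highest levels of the system after cGAMP in implanted tumours, where Isg15 averaged 2892 CPM, Usp18 427 CPM and Herc6 315 CPM, against 2297, 280 and 251 CPM in unclassed cells (means of 2 libraries). The tests of tip against unclassed cells averaged the 2 models and called none of these genes, so the gap in implanted tumours was not tested alone. In spontaneous cGAMP the means were 1686, 216 and 201 CPM in tip against 1516, 163 and 217 CPM in unclassed cells, in the same order. Proliferative cells were 5.08% and 2.995% of ECs in spontaneous PBS and 0.597% and 1.01% after cGAMP, and 8.8% and 11.03% in implanted PBS and 0.916% and 0.497% after cGAMP, so their levels after cGAMP are not given.

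Ubd had the largest fitted class difference among the 6 genes, in arterial cells after PBS. In implanted PBS its level was 928 and 859 CPM in venous, 1182 and 480 CPM in unclassed, 458 and 213 CPM in tip, 402 and 54.5 CPM in AQP7+, 9.51 and 48.5 CPM in lymphatic and 3.65 and 6.26 CPM in arterial cells. Arterial cells were below every other class, and venous and unclassed cells overlapped. In implanted cGAMP the order was alike, with 431 and 538 CPM in venous and 37.4 and 10.8 CPM in arterial cells.

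In spontaneous PBS, Ubd had 0 UMIs in 245 arterial cells (95% confidence interval of the share 0% to 1.54%, Wilson) and 0 in 159 tip cells (0% to 2.36%). Of 49 lymphatic cells 6 carried it (12.2%, 95% confidence interval 5.74% to 24.2%, Wilson). These shares pool the cells of the 2 libraries of a group, so their intervals cover counting error only. After cGAMP in spontaneous tumours the pooled shares ran from 6.44% of AQP7+ cells to 11.1% of unclassed cells. By library they were 5.49% and 7.41% of AQP7+, 11.4% and 10.8% of unclassed and 13.8% and 0% of lymphatic cells. In implanted PBS the pooled share was 23.5% of 388 venous cells (19.5% to 27.9%) and 4.59% of 414 arterial cells (2.96% to 7.06%). By library it was 27.8% and 19.7% of venous and 5.325% and 4.08% of arterial cells. Median depths were 14587 and 14976.5 UMIs in venous and 13444 and 11740 UMIs in arterial cells. No cell type known to lack Ubd was at hand, so the share that RNA from other cells could give was not set. The arterial share was 8.46% in spontaneous cGAMP. Mean levels there were 28.95 CPM in arterial, 38.4 CPM in venous, 33.95 CPM in tip and 21.0 CPM in AQP7+ cells. Arterial cells are thus a class under comparison and not a background, and these shares are not counts of cells expressing Ubd. In implanted cGAMP the pooled share was 11.8% of arterial cells and 34.7% of 285 venous cells (29.5% to 40.4%). Of these venous cells 248 came from the shallow replicate 1 (33.9% with Ubd) and 37 from replicate 2 (40.5%).

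Ubd differed from the ISG15 system in how its UMIs were spread over cells. It was found in 0.829% and 1.498% of ECs in spontaneous PBS, 9.10% and 8.51% in spontaneous cGAMP, 20.8% and 13.7% in implanted PBS and 23.7% and 21.4% in implanted cGAMP. Outside spontaneous PBS, the 5% of ECs with most Ubd held 79.2% to 95.8% of its UMIs. The same measure was 21.9% to 59.7% for the 5 genes of the ISG15 system in those libraries. In spontaneous PBS it was 100% for Ubd, which was fixed in advance because fewer than 5% of ECs carried a UMI. There it was 36.9% to 85.9% for the 5 genes, highest for Usp18, so low counts alone give high values. A single EC of replicate 1 of implanted PBS carried 519 Ubd UMIs. ECs with at least 100 Ubd UMIs numbered 45 and 27 in implanted PBS, 13 and 7 in implanted cGAMP, and 1, 0, 0 and 1 in the spontaneous libraries. In replicate 1 of spontaneous PBS 100 of the 145 Ubd UMIs were in 1 cell, so its level there rests on few cells.

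**Figure D4:**
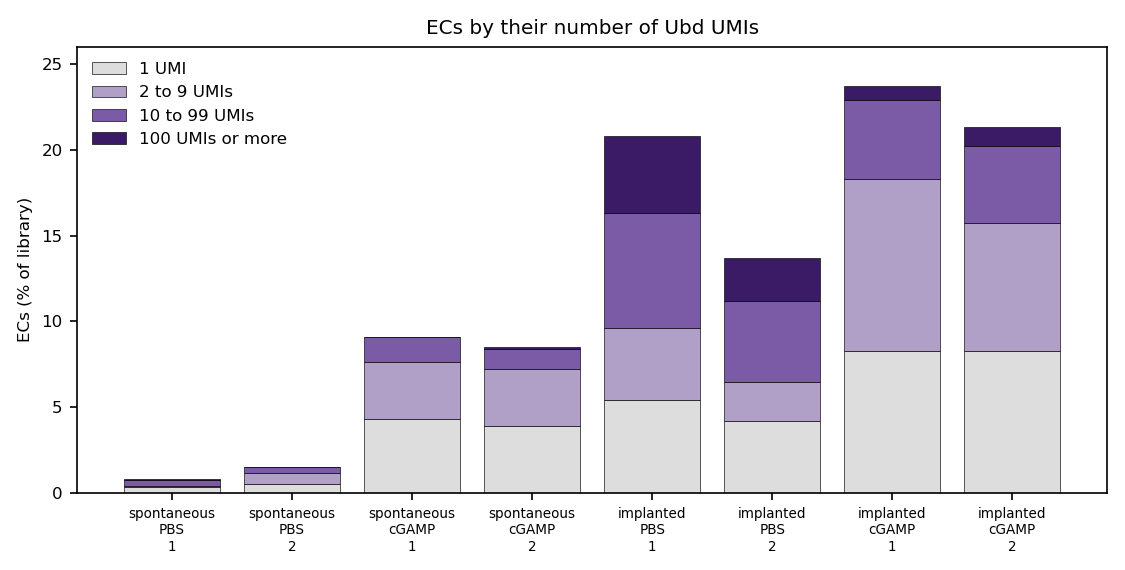
Share of ECs (%) in each library with 1, 2 to 9, 10 to 99 and 100 or more Ubd UMIs, stacked, from spontaneous PBS on the left to implanted cGAMP on the right. Cells with 100 UMIs or more number 45 and 27 in implanted PBS and 13 and 7 in implanted cGAMP, while the total share with a UMI is 20.8% and 13.7% against 23.7% and 21.4%.

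ECs with at least 3 Ubd UMIs and at least 1000 CPM of Ubd were called Ubd-high, a rule set after the data had been seen. They made up 10.4% (95% confidence interval 8.66% to 12.5%) and 6.11% (4.84% to 7.68%) of ECs in implanted PBS, 8.18% (6.90% to 9.66%) and 3.64% (2.42% to 5.45%) in implanted cGAMP and 0% to 1.01% in the spontaneous libraries. The share in the shallow replicate 1 of implanted cGAMP is not comparable, since at its median of 2607 UMIs per Ubd-high cell 3 UMIs already pass the rule. Ubd-high cells held 96.4% and 93.96% of all Ubd UMIs in implanted PBS and 84.9% and 76.0% in implanted cGAMP. They were 16.1% and 12.0% of venous cells, 17.4% and 10.7% of unclassed cells and 0 of 169 and 0 of 245 arterial cells in implanted PBS.

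Other genes were read in Ubd-high cells and in ECs of the same library with no Ubd, as a description without a test, since cells of a library are not replicates. In implanted PBS, Herc6 averaged 169 CPM in Ubd-high against 49.8 CPM in Ubd-free cells of replicate 1, and 121 against 40.6 CPM in replicate 2. Ube2l6 averaged 54.4 against 28.3 CPM and 54.4 against 18.2 CPM, and Isg15 542 against 246 CPM and 268 against 174 CPM. Ubd-high cells were deeper, with a median of 18762 and 18917 UMIs against 12318.5 and 12636. Uba7 and Usp18 were also higher in Ubd-high cells of both libraries, Usp18 by little in replicate 2 (22.7 against 18.9 CPM).

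After cGAMP the values lay closer together. Isg15 averaged 2148 against 2057 CPM and 2302 against 2216 CPM in implanted cGAMP, and Herc6 181 against 202 CPM and 308 against 247 CPM. At matched depth of 2000 UMIs, the number of ISG15-system genes found per cell was 1.04 in cells with Ubd and 0.538 in cells without it in replicate 1 of implanted PBS, 0.822 and 0.433 in replicate 2, and 2.03 against 1.91 and 2.27 against 2.05 in implanted cGAMP.

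The arterial and venous markers of the fixed lists were read in the same way in implanted PBS, and those named here were chosen after their values were seen. Of the 9 arterial markers all 9 were lower in the Ubd-high cells of both libraries. Among them, Gja4, a gap junction protein, was at 12.3 against 462 CPM and 8.52 against 475 CPM. Stmn2 was at 7.82 against 409.8 CPM and 0.436 against 542 CPM. The arterial class was set by these same markers and held no Ubd-high cell in implanted PBS, so the 2 observations are not independent. Low values were not particular to this list. Every lymphatic and proliferative marker was lower in both libraries too. Prox1 was at 1.34 against 63.1 CPM and 0.963 against 52.4 CPM, and Top2a at 21.9 against 66.3 CPM and 10.1 against 64.4 CPM. The share of all genes lower in both was not taken. The 5 venous markers were split, with 2 higher and 3 lower in both libraries. Selp, an adhesion receptor for leucocytes, averaged 512 against 215 CPM and 743 against 184 CPM, and Ackr1, a chemokine-binding receptor, 239.8 against 197 CPM and 398 against 178 CPM. Vwf (242 against 316 CPM and 139 against 295 CPM), Nr2f2 (90.5 against 123 CPM and 103 against 125 CPM) and Ephb4 (77.4 against 111 CPM and 53.5 against 104 CPM) lay below the Ubd-free cells. The tight junction gene Cldn5 was also lower, at 387 against 890.2 CPM and 139 against 764 CPM. Pecam1, on which the ECs were chosen, was at 1472 against 1222 CPM and 1128 against 1142 CPM. Other pan-endothelial markers did not all stay level. Kdr was lower, at 407 against 675 CPM and 308 against 645 CPM, as was Tek, at 78.0 against 149 CPM and 77.6 against 144.5 CPM. Tie1 and Emcn were also lower in both libraries, Egfl7 was higher in both (1219 against 1095 CPM and 1180 against 1053 CPM), and Cdh5 was split. The leucocyte marker Ptprc was at 0 and 0.203 CPM in the Ubd-high cells of implanted PBS, and at 3.08 and 0 CPM in those of implanted cGAMP. The venous markers were split otherwise in implanted cGAMP, with 3 of 5 higher and 1 lower in both libraries. Vwf was among the higher ones there, at 79.8 against 77.6 CPM and 94.6 against 42.4 CPM.

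**Figure D5:**
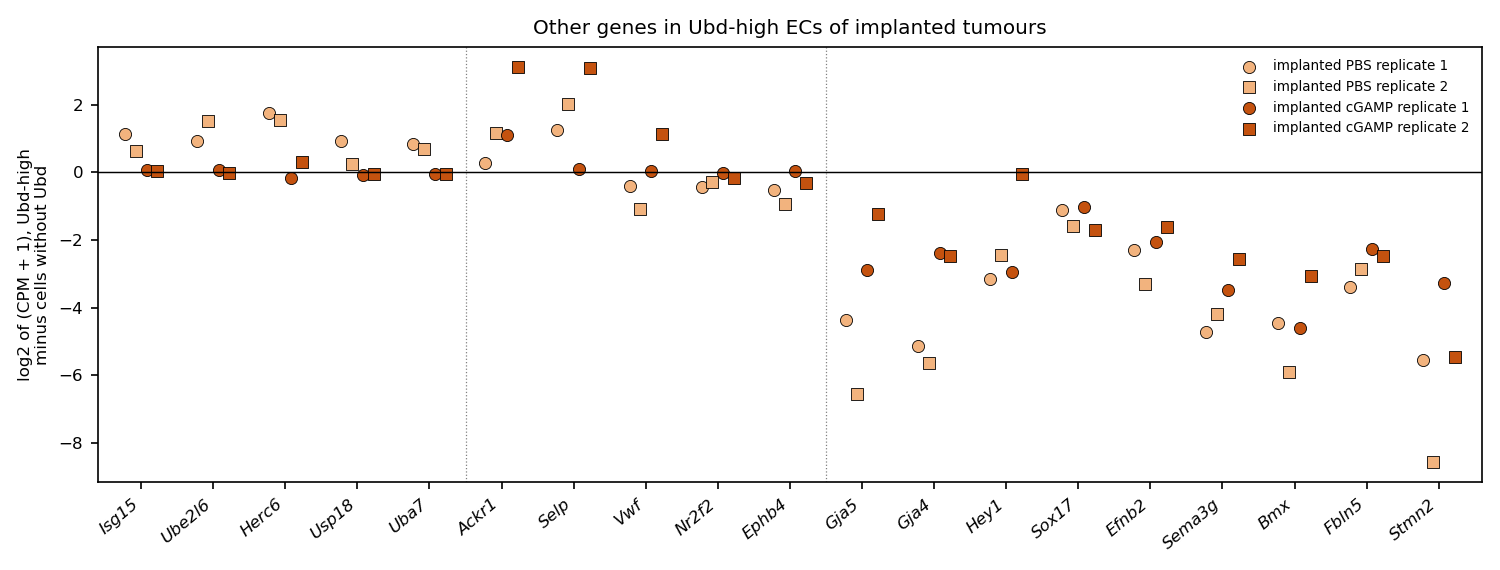
Difference in log2(CPM + 1) between Ubd-high ECs and ECs with no Ubd UMI of the same library (vertical axis) for the 5 ISG15-system genes, all 5 venous and all 9 arterial markers in the 4 implanted libraries, with dotted lines between the lists. The ISG15-system genes lie above 0 in both PBS libraries and nearer 0 in both cGAMP libraries, the venous markers are split around 0, and the 9 arterial markers lie below 0 in all 4.

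Across the 8 libraries the 5 genes of the ISG15 system moved together, with Pearson r of 0.977 to 0.995 between their log2 levels, and Ubd correlated with them at 0.326 to 0.483. These values describe 8 libraries in 4 groups, where 1 treatment sets most of the spread. The genes most like Isg15 of 10424 were Eif2ak2 (r = 0.999), H2-T23 and Lgals3bp. Those most like Usp18 were Rsad2, Slfn8 and Ifih1, those most like Herc6 were Rnf213, Bst2 and Ifi44, those most like Ube2l6 were Trafd1, Stat2 and H2-T23, and those most like Uba7 were Rnf31, Ifi203 and Mndal. The genes most like Ubd were Fuca2 (r = 0.979), Avpi1 and 2200002D01Rik, which spanned a far smaller range, at 18.1 to 29.9 CPM for Fuca2.

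Other genes of the 2 routes were read from fixed lists. Of 14 partner genes, 12 were tested, and in spontaneous tumours 3 rose and 1 fell after cGAMP, where 12.7% of all genes were called. Stat2, a transcription factor of interferon signalling to which USP18 also binds, rose by 2.26 ± 0.12 and Trim25, a ubiquitin ligase of the RNA sensor RIG-I, by 0.9995 ± 0.08 on the log2 scale, the proteasome ubiquitin receptor Psmd4 rose by 0.43, and the deubiquitinase Usp5 changed by -0.40 (adjusted p = 0.048). In implanted tumours, where 25% of all genes were called, 4 rose and none fell, namely Stat2 by 1.62 ± 0.12, Trim25 by 0.69 ± 0.08, Adrm1 by 0.34 and Psmd4 by 0.26. The FAT10 E1 and E2 genes Uba6 (-0.21 ± 0.16 and 0.05 ± 0.16) and Ube2z (-0.17 ± 0.12 and 0.16 ± 0.12) were not called in either model and are named for their role. The median log2 fold change of the 12 was 0.15 and 0.27, against -0.10 over all genes in both models.

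Lists of other modifiers of the ubiquitin family were read in the same fits, against the same shares of 12.7% and 25% of all genes called. After cGAMP Rps27a, which encodes ubiquitin fused to a ribosomal protein, changed by -0.25 in implanted tumours. Of 12 SUMO genes none was called in spontaneous tumours (2 with an unadjusted p below 0.05 in limma), and in implanted tumours Senp2 rose by 0.38 and Sumo2 changed by -0.31. Of 5 NEDD8 genes Nedd8 (-0.29) and Nae1 (-0.38) were called in implanted and none in spontaneous tumours (1 unadjusted), and 0 of 6 UFM1 genes were called in either (0 unadjusted). Of 4 other HERC genes, Herc1 was called at -0.45 and -0.35. With median-of-ratios scaling each of the calls below 0 named here was lost, and the partners called higher were 5 and 8 in place of 3 and 4.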

How the data were processed

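Droplet-based 3′ libraries of sorted CD31+ cells were mapped by the authors to mm10 with Cell Ranger 3.0.0 and handled in Seurat 3.1.1. The authors had kept cells with 500 genes or more and a mitochondrial share of at most 10%, and genes seen in 3 cells or more. The deposited values are natural log values per cell, ln(1 + UMIs × 10000 / total UMIs), from which whole UMIs were recovered for 100% of values (tolerance 0.01), and 0 columns of values were left unused. A count test had been planned for deposited counts only and was not used, since the tables are log-normalised.

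Groups came from the labels. Values were turned into CPM and averaged over cells with a Pecam1 UMI. Log2(mean CPM + 1) was tested for genes that reached 5 CPM in 2 or more libraries by limma 3.58.1 in R 4.3.3 (eBayes with trend, 8 libraries in 1 fit), with Benjamini-Hochberg adjustment over all genes and a threshold of 0.05. A fold on this scale understates the change of low genes. Fold changes given as N-fold are ratios of the group means of CPM. Vessel classes of at least 20 cells in a library (48 sets of cells, 10862 genes) were fitted with library as a block. Doublets were not called. The fits were tested on simulated data.

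The 6 genes and the lists were chosen with earlier results of these data known. All 6 are named; from the lists, the 2 largest called changes in each direction, with further members of short counts named after their values were seen; and for likeness the 3 genes with the highest r. Alternatives were another pseudocount, no filter, summed UMIs, median-of-ratios scaling, a replicate block, other cell choices, thinning to 2000 UMIs and leaving out each library. Part of the ubiquitin list is not reported here.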

Additional observations from a re-analysis of the deposited data

Results flagged for a closer look

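The responses of Ubd differed between the models, with a log2 difference of -3.51 ± 0.58 (limma, adjusted p = 0.040) that rests on 2 libraries a group and was lost under several settings given above.

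The 1045 cells without a Pecam1 UMI entered no comparison of the report, and only the setting with all deposited cells used them. The 5 genes of the ISG15 system were higher in both cGAMP libraries than in both PBS libraries of the same model there as well. Isg15 averaged 51.1 and 95.7 CPM in spontaneous PBS and 1606 and 1174 CPM (mean 1390 CPM) in spontaneous cGAMP. In implanted tumours it averaged 447 and 330 CPM after PBS and 1989 and 2312 CPM (mean 2150 CPM) after cGAMP. After cGAMP the mean in spontaneous tumours was 66.4 CPM for Ube2l6, 97.8 CPM for Herc6, 114.5 CPM for Usp18 and 83.8 CPM for Uba7. In implanted tumours it was 111 CPM for Ube2l6, 209 CPM for Herc6, 180.1 CPM for Usp18 and 117 CPM for Uba7. There were 496 such cells in the shallow replicate 1 of implanted cGAMP, and every other library had 50 to 99. The differences were not tested.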

How the results depend on the processing

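The number of the 6 genes called in the difference of responses was 1, and became 0 with a pseudocount of 10 CPM, 0 without the filter on low values, 2 with cells thinned to 2000 UMIs and 0 to 2 when a library was left out. After PBS, 5 genes were called between the models, against 2 without the filter and 2 to 5 with a library left out. After cGAMP, 1 gene was called between the models, against 3 with a pseudocount of 10 CPM, 3 with summed UMIs, and 2 each with median-of-ratios scaling, stricter ECs, thinned cells and equal weight per vessel class, which was chosen after seeing the data, and 1 to 2 with a library left out. Leaving out a library gave 6 to 6 calls in spontaneous and 5 to 6 in implanted tumours. The 8 class levels called became 4 with thinned cells and 3 to 11 with a library left out. The 0 class responses called became 0 to 1, the call being Ubd in lymphatic cells without replicate 1 of spontaneous cGAMP (-3.57, adjusted p = 0.049). Usp18 in lymphatic cells after PBS turned from -0.03 to 0.63 without replicate 2 of spontaneous PBS (-0.70 without replicate 1), and Uba7 there from 0.03 to -0.74 at a score threshold of 1.5. Of the log2 differences over libraries, 249 of 270 under other settings and 222 of 240 with a library left out kept their direction and side of the threshold, and over classes 258 of 270 and 692 of 720 did. The causes were not tested. Libraries of different groups are tied only by a replicate number. Same-numbered libraries deviated with correlations of -0.22 to 0.13, which cannot tell whether they shared a day or handling. The fit with the replicate block called 6, 5, 1, 5 and 1 genes and changed no call. With 1 library left, a group was assumed to vary like the others.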

Other observations

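In cells without a Pecam1 UMI, Ubd was at 0, 0, 2.34 and 0 CPM in the 4 spontaneous libraries, in the order PBS and cGAMP. In the implanted libraries it was at 758 and 159.9 CPM after PBS and 328 and 324 CPM after cGAMP, in 5.38% to 13.1% of these cells.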
